A study of Mus musculus with 18 samples.

Results

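The proteasome genes were followed in the livers of mice fed quercetin, a dietary flavonol, and are described here by subunit role, by diet and by single mouse. They were taken as all genes whose array symbol begins with Psma, Psmb, Psmc, Psmd, Psme, Psmf or Psmg followed by a digit. Of the 18193 genes with a probe set of a single symbol, 49 met that rule, and all 49 were among the 12885 genes bright enough to be tested. Of the 49, 47 encode parts of the proteasome or proteins that regulate or assemble it. The other two, Psmc3ip, a cofactor of meiotic recombination, and Psme3ip1, a partner of the activator PSME3, matched by symbol but are no part of the particle and were left out of the counts below. The 47 were 7 alpha and 7 beta subunits of the constitutive 20S core, 3 immunoproteasome subunits, 6 ATPases and 11 other subunits of the 19S cap, 3 activators, 1 inhibitor, 7 assembly chaperones, the testis alpha subunit Psma8 and the thymus beta subunit Psmb11. Psme2, the partner of Psme1 in the PA28 activator, shares its probe set with a second symbol and is not analysed here.

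The study measured liver RNA of 18 male mice on Affymetrix arrays, with 6 mice on each of 3 diets and the RNA of 1 mouse on each array. The mice, C57BL/6J in the protocol and written C56BL/6J in the strain label, were 5 weeks old when feeding began and ate AIN93G diet for 20 weeks, either plain (control) or with 0.05% or 1% quercetin by the labels. Each diet had 12 mice in cages of 3, the cage of each mouse is not in the labels, and the p-values therefore measure the spread between mice without regard to cage. Expression is given as log2 of the deposited intensity plus 16, after each array was shifted to a common median of the tested genes. Values are mean ± SD with n = 6 mice per diet unless stated otherwise, and differences between diets are log2 ± SE. A gene was called where the two-sided p from limma, adjusted by the Benjamini-Hochberg method over all 12885 genes, was under 0.05.

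The proteasome is the main protease of the cytosol and nucleus. A barrel of alpha and beta rings, the 20S core, holds the cutting sites on its beta subunits, and the 19S cap recognises ubiquitin-tagged proteins, unfolds them with its ATPases and feeds them into the barrel. Interferon and immune cells replace the cutting subunits Psmb5, Psmb6 and Psmb7 by the inducible Psmb8, Psmb9 and Psmb10, which yields the immunoproteasome and favours peptides for presentation on MHC class I. In liver the constitutive form is abundant in hepatocytes, and the inducible form is typical of resident immune cells and of hepatocytes exposed to interferon.

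Before shifting, the median of the tested genes differed by up to 0.53 between arrays, with diet means between 6.95 and 7.01 and SDs between 0.13 and 0.19. The liver label held: all 7 hepatocyte markers on the array were tested, and albumin (Alb) lay between 13.04 and 13.69 on the 18 arrays. Markers of other cells were also read, with Clec4f of Kupffer cells between 8.91 and 9.82. Of the 11 listed T and NK cell genes, 6 passed the test filter of 4.69, with medians over the arrays from 4.80 (Cd3d) to 6.02 (Ccl5), while the medians of Cd3e, Cd4, Cd8b1 and Cd2 lay below it. A piece of liver holds many cell types, and fewer cells of a type cannot be told apart from less RNA per cell.

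The promoters of the proteasome genes were searched for the letters of known control elements, and the stretches of some members are printed here. RefSeq promoter windows of GRCm38.p6, from 250 bases before the transcription start to 50 bases after it, were matched for 41 of the 49 members. Psmb8 and Psmb9 lie side by side on chromosome 17 among the antigen transporter genes Tap1 and Tap2, whereas Psmb10 is on chromosome 8. Psmb9 and Tap1 start back to back, 225 bases apart, so a single short stretch is upstream of both genes. It lies at chr17:34187331-34187555 and is written on the plus strand, from the Psmb9 start towards the Tap1 start, with a CCAAT box in capitals:
Psmb9-Tap1: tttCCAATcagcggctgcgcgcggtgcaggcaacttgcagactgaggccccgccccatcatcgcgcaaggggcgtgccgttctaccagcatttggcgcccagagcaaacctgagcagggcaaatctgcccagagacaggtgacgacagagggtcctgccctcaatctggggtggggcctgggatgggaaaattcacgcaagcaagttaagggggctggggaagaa
The constitutive cutting subunits Psmb5 and Psmb6 each held an antioxidant response element, TGACNNNGC, the motif class bound by NFE2L1 and NFE2L2. It is shown in capitals for Psmb5 at chr14:54618009-54618067, minus strand, and for Psmb6 at chr11:70525323-70525356, plus strand:
Psmb5: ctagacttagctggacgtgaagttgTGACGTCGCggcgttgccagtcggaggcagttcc
Psmb6: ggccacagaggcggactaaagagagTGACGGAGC
Searched on both strands, the antioxidant response element was in 6 of the 41 windows (Psmb5, Psmb6, Psmc6, Psmd12, Psmd9 and Psme4), which is 14.6%, against 14% of all 27025 genes with a window. The interferon-stimulated response element, GAAA and GAAA with any 2 bases between them, was in 5 windows (Psmb3, Psmd4, Psmd9, Psme1 and Psmg4), 12.2% against 3.99%. CCAAT was in 16, 39% against 41.1%. Some windows hold more than 1 of these motifs, and a match only describes the letters of the window.

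None of the 47 proteasome genes differed between diets beyond the spread between mice after adjustment over all genes. In 1% quercetin against control, 0 of 47 were called by limma, with a lowest adjusted p of 0.412, where the background was 1 called gene of 12885 (0.00776%). In 0.05% quercetin against control 0 of 47 were called, with a lowest adjusted p of 0.948, and the background was 0%. In 1% against 0.05% quercetin 0 of 47 were called, with a lowest adjusted p of 0.629, and the background was also 0%. Before adjustment, 4 genes were under 0.05 in 1% against control, with Psma6 and Psmg4 higher and Psmc2 and Psmb2 lower, beside 3.87% of all genes higher and 4.66% lower. The same threshold was met by Psmb7 and Psma6, both higher, in 0.05% against control (2.65% of all genes higher, 2.44% lower) and by no proteasome gene in 1% against 0.05% (4.66% of all genes higher, 3.86% lower). Both comparisons with control share the same 6 control mice, so they are not independent of each other.

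The median difference of the family from control was close to that of all genes. At 1% quercetin 17 of the 47 were higher than control and 30 lower, with a median difference of -0.03 against -0.01 over all genes, of which 51.7% were lower. At 0.05% 20 were higher than control and 27 lower, with a median of -0.01 against -0.01 and 53.9% of all genes lower. In 1% against 0.05%, 21 were higher and 26 lower, with 49.8% of all genes lower. These splits moved with the scaling: on values as deposited, 13 were higher and 34 lower at 1% against control, where the median over all genes was itself -0.06, and 10 were higher and 37 lower in 1% against 0.05%. After quantile normalization the splits were 21 and 26 at 1% against control, 25 and 22 at 0.05%, and 20 and 27 in 1% against 0.05%. The share of all genes lower under these other scalings is not given here, so those splits cannot be set against all genes.

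**Figure D1:**
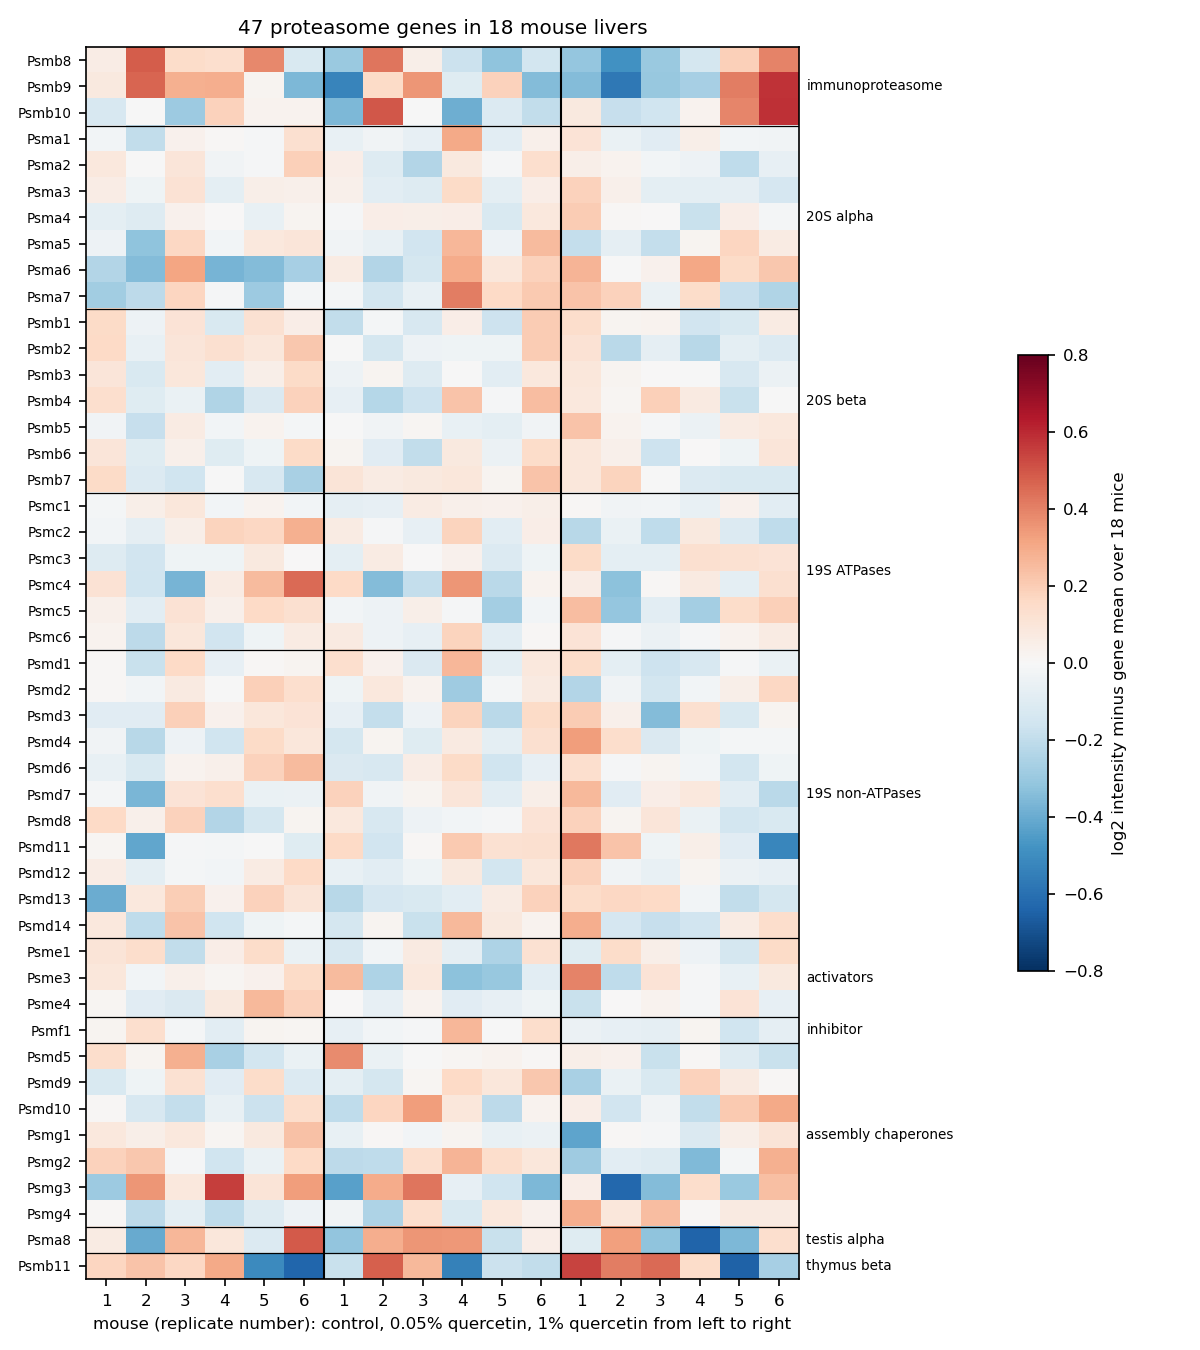
The 47 proteasome genes (rows, by role) in the 18 mice (columns, 6 per diet), coloured by log2 intensity minus the gene's mean over all mice. With the within-diet SD pooled over the 3 diets, the top rows, Psmb8, Psmb9 and Psmb10, vary more than the 20S core and 19S cap rows. In single diets this need not hold. Among controls Psmc4 (SD 0.29) and Psma6 (0.26) varied more than Psmb8 (0.22) and Psmb10 (0.16).

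Most 20S core and 19S cap genes differed little between diets. Of these 31 genes, 26 differed by less than 0.1 at 1% quercetin against control, 25 at 0.05% against control and 27 in 1% against 0.05%. The 95% interval of the difference lay within ±0.5 for 30 of the 31 in 1% against control and for all 31 in the other two comparisons. In 1% against control the bounds ran from -0.38 for Psmc2 to 0.62 for Psma6. Differences smaller than these bounds could not be resolved with 6 mice per diet. The share of all genes within the same limits was not counted, so these counts do not set the core and cap genes apart.

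**Figure D2:**
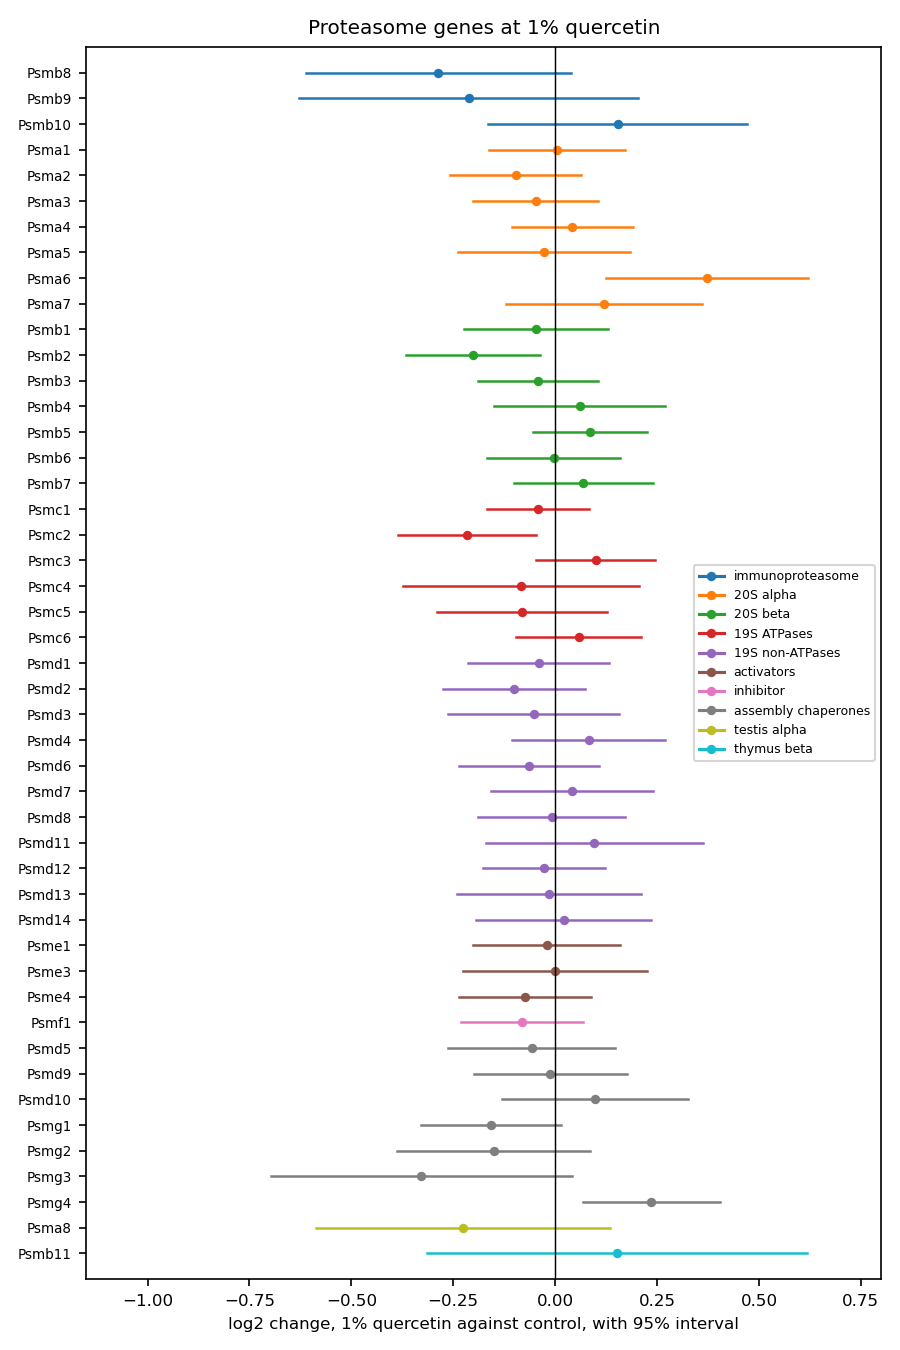
Log2 difference of each of the 47 proteasome genes in 1% quercetin against control (point), with its 95% interval from limma (line), coloured by role. Most constitutive subunits lie near 0, and the intervals of Psma6, Psmg4, Psmc2 and Psmb2 exclude 0 before any adjustment.

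Among the alpha subunits, which form the gated outer rings, Psma6 had the largest difference of the family. Its brightest probe set was lowest at 10.78, median 10.85 and highest 11.47 in control mice. The same set read 10.92, 11.23 and 11.45 at 0.05%, and 11.15, 11.34 and 11.46 at 1%. All 1% mice lay above 5 of the 6 controls, while control mouse 3 stood above every mouse on quercetin. The difference was 0.37 ± 0.12 at 1% against control (limma, adjusted p = 0.412) and 0.25 ± 0.12 at 0.05% against control (adjusted p = 0.948). A second bright probe set of Psma6 did not show it: 10.85 ± 0.06 in control, 10.86 ± 0.05 at 0.05% and 10.85 ± 0.06 at 1%, a difference of 0.00 at 1%. The other 2 tested probe sets of Psma6 differed by -0.06 and -0.04. Psma7, another alpha subunit, was 9.92 ± 0.18 in control, 10.11 ± 0.21 at 0.05% and 10.04 ± 0.20 at 1%, a difference of 0.20 ± 0.11 at 0.05% (adjusted p = 0.948), and its other tested probe set differed by 0.10.

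**Figure D3:**
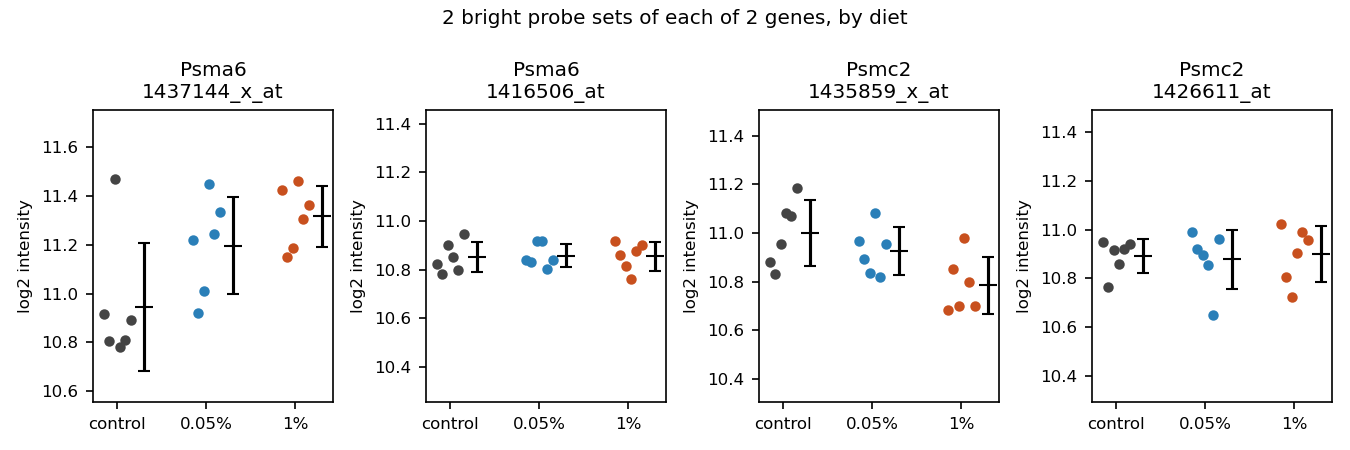
Log2 intensity of the 2 bright probe sets of Psma6 and of Psmc2 in each mouse, by diet, with mean and SD (bars). On the first probe set drawn, Psma6 differed by 0.37 and Psmc2 by -0.22 at 1% against control, with the diets overlapping, and on the second by 0.00 and 0.01.

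Among the constitutive beta subunits, Psmb2, a structural subunit of the inner ring, was lower at 1% in most mice. In control mice it ran from 9.87 through a median of 10.04 to 10.15, at 0.05% from 9.79 through 9.89 to 10.13, and at 1% from 9.71 through 9.84 to 10.04. At 1%, 5 of 6 mice lay below every control, and 1% mouse 1 lay among them. The difference from control was -0.20 ± 0.08 at 1% (limma, adjusted p = 0.488) and -0.11 ± 0.08 at 0.05% (adjusted p = 0.948), with a single probe set.

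The cutting subunit Psmb5, with chymotrypsin-like activity, was 10.66 ± 0.09 in control, 10.65 ± 0.03 at 0.05% and 10.74 ± 0.10 at 1%. Psmb6, with caspase-like activity, was 10.64 ± 0.11, 10.61 ± 0.12 and 10.63 ± 0.10 in the same order. Psmb7, with trypsin-like activity, had its lowest, median and highest mice at 10.16, 10.30 and 10.57 in control, 10.44, 10.50 and 10.65 at 0.05%, and 10.30, 10.36 and 10.60 at 1%. All 6 mice on 0.05% lay above the control mean of Psmb7, but control mouse 1 exceeded all but 1 of them. The Psmb7 difference was 0.18 ± 0.08 at 0.05% against control (limma, adjusted p = 0.948), 0.07 ± 0.08 at 1% against control (adjusted p = 0.848) and -0.11 ± 0.08 in 1% against 0.05% (adjusted p = 0.743).

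The 19S ATPases, the ring that unfolds substrates and opens the gate of the core, had 2 genes higher and 4 lower at 1% against control, with a median of -0.06. Psmc2 carried the largest difference. Its brightest probe set ran from 10.83 through 11.01 to 11.19 in control mice, from 10.82 through 10.93 to 11.08 at 0.05% and from 10.68 through 10.75 to 10.98 at 1%. At 1%, 4 of 6 mice lay below every control, and the groups overlapped. The difference was -0.22 ± 0.08 at 1% against control (limma, adjusted p = 0.478) and -0.14 ± 0.08 in 1% against 0.05% (adjusted p = 0.666). Its other bright probe set differed by 0.01 and 0.02 in these comparisons. Of the 11 other subunits of the 19S cap, which bind ubiquitin, remove it or hold the cap together, 4 were higher and 7 lower at 1% against control, all between -0.10 and 0.10.

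The other probe sets of a gene often differed in sign from the chosen set. Of the 47 genes and the 2 other symbol matches, 22 had a second or further probe set above the filter, 41 such sets in all. These 41 had the sign of the chosen set in 20 cases at 1% against control, 27 at 0.05% against control and 23 in 1% against 0.05%. Many of them were dim, such as sets of Psma1 at 5.03 and Psmd11 at 4.76 in control. On the chosen sets 33 of the 47 genes differed by less than 0.1 at 1% against control, so a difference of sign need not mean a conflict.

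The activators open the core without ubiquitin. Psme1, an interferon-inducible subunit of PA28, was 10.29 ± 0.13 in control, 10.22 ± 0.13 at 0.05% and 10.27 ± 0.12 at 1%. Psme3, the nuclear PA28 gamma, was 7.46 ± 0.06, 7.31 ± 0.23 and 7.46 ± 0.20 in that order, and 4 of the 6 mice on 0.05% lay below every control. Its difference was -0.16 ± 0.11 at 0.05% against control (limma, adjusted p = 0.948), and a second tested probe set differed by -0.01. Psme4, the PA200 activator, was 10.89 ± 0.15, 10.80 ± 0.05 and 10.82 ± 0.10. The inhibitor Psmf1, known as PI31, was 7.77 ± 0.07, 7.80 ± 0.13 and 7.69 ± 0.06, a difference of -0.12 ± 0.07 in 1% against 0.05% (adjusted p = 0.687), with its other tested probe sets between -0.10 and 0.07.

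Of the assembly chaperones, which build the core or the base of the cap and leave the finished particle, Psmg4 was the 1 proteasome gene whose 1% and control mice did not overlap. This core chaperone, known as PAC4, ran from 7.51 through a median of 7.63 to 7.73 in control mice, from 7.47 through 7.72 to 7.85 at 0.05% and from 7.73 through 7.80 to 8.01 at 1%. The lowest mouse on 1% lay just above the highest control, and the mice on 0.05% spanned both groups. The difference was 0.24 ± 0.08 at 1% against control (limma, adjusted p = 0.428) and 0.16 ± 0.08 in 1% against 0.05% (adjusted p = 0.629). Over all genes, 0.233% had 1% mice all above the controls and 0.248% all below. In the other two comparisons no proteasome gene had groups apart, where 0.217% of all genes were apart above and 0.171% below at 0.05% against control, and 0.388% and 0.295% in 1% against 0.05%. Its partner Psmg3, or PAC3, went the other way and varied widely: it was 8.18 ± 0.29 in control, 7.94 ± 0.35 at 0.05% and 7.85 ± 0.34 at 1%. That difference was -0.33 ± 0.18 at 1% (adjusted p = 0.636), the largest below 0 in the family, and the diets overlapped. Psmg1, or PAC1, was 9.14 ± 0.08, 9.02 ± 0.03 and 8.98 ± 0.19, and 5 of the 6 mice on 0.05% lay below every control (difference -0.12 ± 0.08, adjusted p = 0.948). In all, 2 of 7 chaperones were higher and 5 lower at 1% against control.

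The tissue-restricted subunits gave little signal. Psma8, of the spermatoproteasome of testis, was 5.10 ± 0.31 in control, 5.13 ± 0.29 at 0.05% and 4.88 ± 0.35 at 1%. Psmb11, of the thymoproteasome of cortical thymus epithelium, was 4.75 ± 0.41, 4.74 ± 0.36 and 4.90 ± 0.47. Both lay close to the filter of 4.69, and no difference of either was under an adjusted p of 0.731 by limma.

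The immunoproteasome subunits varied widely between mice of a diet, and none of their differences between diets was called. Psmb8, which replaces Psmb5 and is also called LMP7, ran from 8.54 through a median of 8.81 to 9.15 in control mice, from 8.34 through 8.51 to 9.09 at 0.05% and from 8.18 through 8.45 to 9.06 at 1%. In each quercetin diet 4 of 6 mice lay below every control, while 0.05% mouse 2 and 1% mice 5 and 6 were as high as the controls. The difference was -0.29 ± 0.16 at 1% against control (limma, adjusted p = 0.642) and -0.26 ± 0.16 at 0.05% against control (adjusted p = 0.948). A dim second probe set of Psmb8 differed by -0.46 and -0.06 in these comparisons.

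Psmb9, which replaces Psmb6 and is also called LMP2, ran from 7.78 through 8.32 to 8.61 in control mice, from 7.61 through 8.17 to 8.50 at 0.05% and from 7.57 through 7.86 to 8.72 at 1%. At 1% the readings of 4 mice lay between 7.57 and 7.88, while mice 5 and 6 stood apart at 8.55 and 8.72. Its difference was -0.21 ± 0.20 at 1% against control (limma, adjusted p = 0.801) and -0.18 ± 0.20 at 0.05% against control (adjusted p = 0.952). Psmb10, which replaces Psmb7 and is also called MECL-1, ran from 8.67 through 8.98 to 9.15, from 8.57 through 8.81 to 9.46 and from 8.78 through 9.02 to 9.55 in the same order. The highest Psmb10 readings were those of 1% mouse 6, 0.05% mouse 2 and 1% mouse 5, and all diets overlapped. The Psmb10 difference was 0.15 ± 0.15 at 1% against control (adjusted p = 0.814), -0.06 ± 0.15 at 0.05% against control (adjusted p = 0.974) and 0.22 ± 0.15 in 1% against 0.05% (adjusted p = 0.737).

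**Figure D4:**
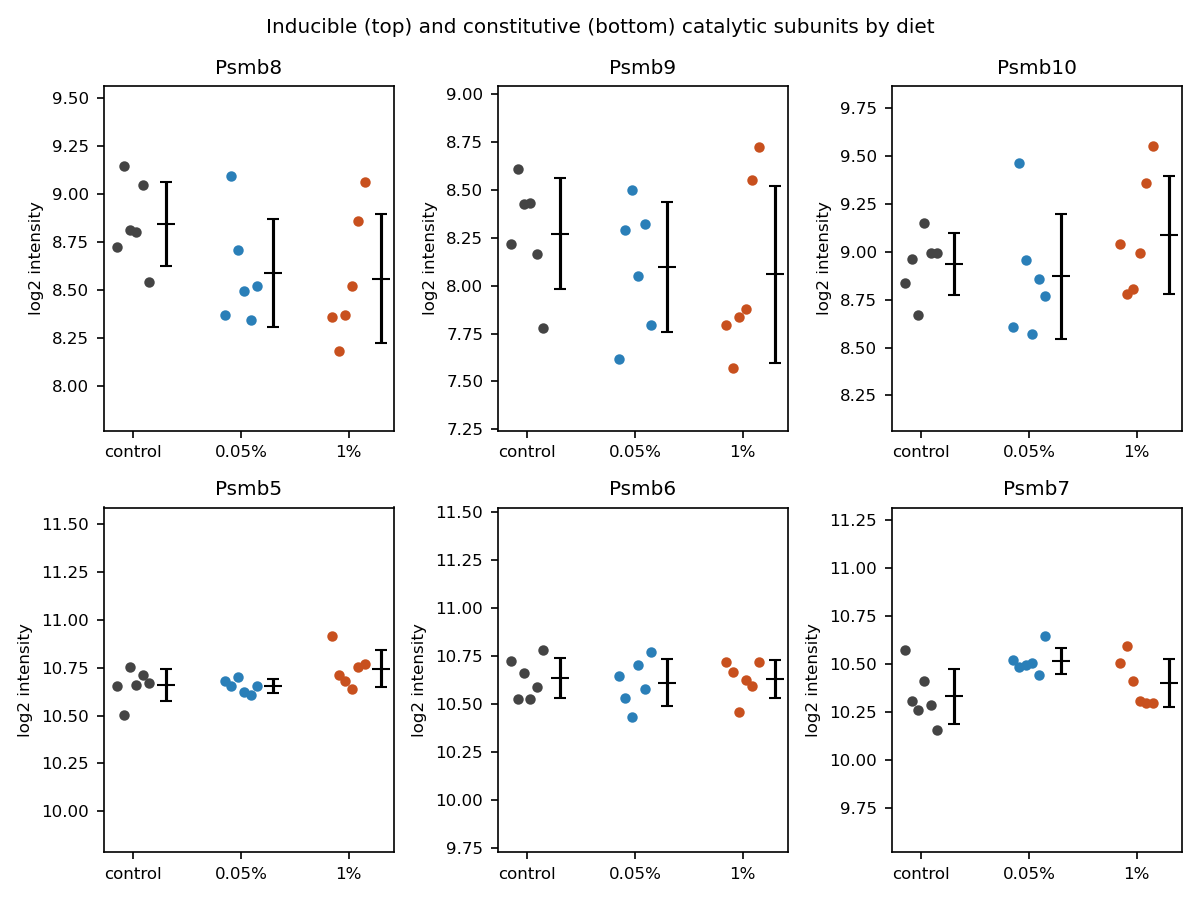
Log2 intensity of the inducible cutting subunits (top) and of the constitutive subunits they replace (bottom) in each mouse, by diet, with mean and SD (bars); all panels span the same log2 range. Among mice on quercetin each inducible gene spans a wider range than any constitutive gene, while among controls Psmb10 (8.67 to 9.15) and Psmb7 (10.16 to 10.57) are spread about alike.

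The exchange of cutting subunits was examined as the log2 difference of each inducible gene from the gene it replaces, taken within each array, so that the array scale drops out. Psmb8 minus Psmb5 was -1.81 ± 0.27 in control, -2.07 ± 0.27 at 0.05% and -2.19 ± 0.35 at 1%. The diets differed by -0.37 ± 0.18 at 1% against control (exact permutation test, p = 0.0758, adjusted p = 0.385) and by -0.25 ± 0.16 at 0.05% (p = 0.132, adjusted p = 0.385, exact). Psmb9 minus Psmb6 differed by -0.21 ± 0.24 at 1% against control and -0.15 ± 0.24 at 0.05%. Psmb10 minus Psmb7 differed by 0.08 ± 0.19 at 1% against control, -0.25 ± 0.17 at 0.05% against control and 0.33 ± 0.22 in 1% against 0.05%. These 9 differences, 3 pairs in 3 comparisons, were tested two-sided over all 924 regroupings of 12 mice, which allow a smallest p of 0.00216, and the lowest adjusted p was 0.385. Probes of different genes bind with different strength, so the levels of these within-array differences do not give the share of immunoproteasome.

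Within diets, the spread between mice was larger for the immunoproteasome than for the core and cap genes. It was not particular to these 3 in the family: Psmg3 (0.33), Psma8 (0.32) and Psmb11 (0.42) had larger SDs than Psmb8 and Psmb10. Core and cap genes are mostly brighter, and spread at like brightness was not compared. The SD between mice of a diet, pooled over the 3 diets, had a median of 0.12 over the 31 core and cap genes. It was 0.28 over Psmb8, Psmb9 and Psmb10, 0.16 over the assembly chaperones and 0.23 over all 12885 genes. Of the 31 core and cap genes, 30 had a smaller SD than the median gene, with Psmc4 (0.25) the exception. A second tested probe set of Psmc4 had SDs of 0.08 in control, 0.11 at 0.05% and 0.03 at 1%. All 31 had a smaller pooled SD than any of Psmb8 (0.28), Psmb9 (0.37) and Psmb10 (0.27). Psmc1, an ATPase of the 19S base, had the smallest SD of all 12885 genes, 0.05, with control mice between 9.56 and 9.67, mice on 0.05% between 9.51 and 9.65 and mice on 1% between 9.50 and 9.62. On values as deposited, where the array scale adds to every gene, the medians were 0.22, 0.29 and 0.28 for the core and cap, the immunoproteasome and all genes. Then 25 of the 31 were below the median gene and 24 below every immunoproteasome gene, and Psmc1 was 635th from the smallest. After quantile normalization 30 and 31 of the 31 were below, and Psmc1 was 43rd.

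Psmb8, Psmb9 and Psmb10 varied together from mouse to mouse, after the mean of each diet was taken off. Over the 18 mice Pearson's r was 0.77 for Psmb8 and Psmb9 (Spearman's rho 0.74), 0.79 for Psmb8 and Psmb10 (rho 0.66) and 0.64 for Psmb9 and Psmb10 (rho 0.63). Shuffling mice within diets 100000 times, a permutation test adjusted over the 3 pairs, gave p = 0.00241, 0.00241 and 0.0114 for r and 0.00462, 0.0111 and 0.012 for rho. The plan held these relations as description without a test, so the permutation test is an addition to it. Without the 2 mice farthest from the median, r was 0.74, 0.57 and 0.47. Within the diets the order of r for these 3 pairs was 0.70, 0.08 and -0.11 in control, 0.47, 0.89 and 0.58 at 0.05%, and 0.99, 0.96 and 0.96 at 1%, each over 6 mice. The relations of Psmb10 thus did not hold within the control mice, and whether the diets differ in them was not tested. On values as deposited the 3 pooled r were 0.76, 0.79 and 0.62, and after quantile normalization 0.79, 0.82 and 0.68.

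**Figure D5:**
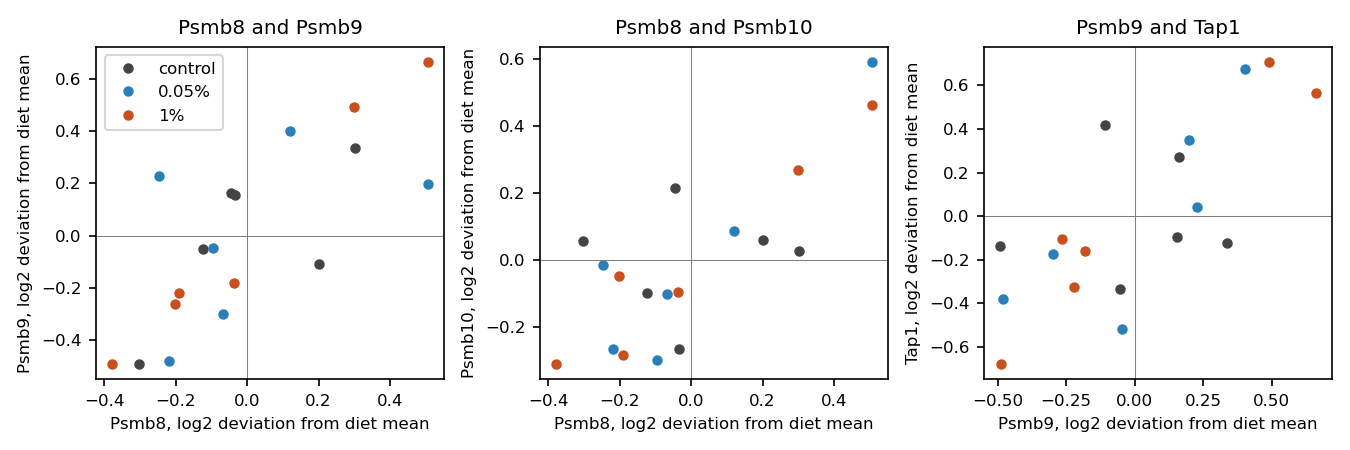
Deviation of each mouse from the mean of its diet, in log2, for Psmb8 against Psmb9, Psmb8 against Psmb10 and Psmb9 against Tap1, coloured by diet. The Pearson r over 18 mice were 0.77, 0.79 and 0.75. Within control, 0.05% and 1% mice r was 0.70, 0.47 and 0.99 in the first panel and 0.08, 0.89 and 0.96 in the second. For the third panel the r within each diet is not given.

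Tap1 and Tap2, which carry peptides cut by the proteasome into the endoplasmic reticulum for MHC class I, varied with these subunits over the 18 mice pooled. Over 18 mice, r with Tap1 was 0.73 for Psmb8, 0.75 for Psmb9, its neighbour across the stretch printed above, and 0.80 for Psmb10, which lies on another chromosome. Among controls, Psmb9 and Tap1 deviated in the same direction in mice 1, 4 and 6 and in opposite directions in mice 2, 3 and 5. Control mouse 5 had the highest Tap1, 7.91, with Psmb9 at 8.16, and control mouse 2 the highest Psmb9, 8.61, with Tap1 at 7.37. The r with Tap1 within each diet is not given here. Tap1 was 7.50 ± 0.28 in control, 7.27 ± 0.45 at 0.05% and 7.27 ± 0.53 at 1%, and Tap2 was 7.02 ± 0.04, 6.98 ± 0.27 and 7.03 ± 0.33. Tap2 was thus nearly constant in the 6 controls, between 6.97 and 7.06, while 0.05% mouse 2 reached 7.49 and 1% mouse 5 reached 7.47. Of the 21 tested genes of the list of interferon-induced antigen processing, 17 had a positive r with the mean of the 3 subunits, with a median of 0.34. The interferon factor Irf1 had r = 0.26, which was 0.15 on values as deposited and 0.31 after quantile normalization. For B2m, the light chain of MHC class I, r moved with the scaling, from 0.00 (-0.01 as deposited) to -0.46 after quantile normalization. Of all genes outside the family, the 5 most like this mean were Arpin (0.93), Fam118a (0.92), Lgals8 (0.92), Gsdmd (0.91) and Eef1akmt1 (0.91), and Arpin, Lgals8 and Eef1akmt1 were also among the top 5 both on values as deposited and after quantile normalization. Tap2 was 11th and Tap1 26th in this order. These r are descriptions, and all genes share the same 18 arrays.

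By r with these 3 subunits, the T and NK cell and Kupffer cell lists were not clearly apart from the hepatocyte list. The mean of the 6 tested T and NK cell markers of 11 listed had r = 0.54 with the mean of Psmb8, Psmb9 and Psmb10, and that of the 11 tested Kupffer cell and macrophage markers of 12 listed had r = 0.50. Hepatocyte markers, 7 tested of 8, had r = 0.45, and neutrophil markers, 3 tested of 8, had r = 0.38. The hepatocyte list holds Tat, which ran from 9.84 to 12.53 over the arrays, while Apoa1 ran from 13.58 to 14.04. Tat differed by -1.11 ± 0.30 at 1% against control (limma, adjusted p = 0.315). The list mean is unweighted and can follow Tat, so its r does not measure hepatocyte content. The r without Tat was not computed. After quantile normalization r was 0.50 for T and NK cells, 0.57 for Kupffer cells and 0.56 for hepatocytes. On values as deposited these were 0.60, 0.53 and 0.41. The 6 T and NK cell markers were dim, with medians from 4.80 to 6.02. Cholangiocyte markers had r = 0.32, endothelial markers 0.07 and stellate cell markers -0.17. Dendritic cell markers, 4 tested of 7, had r = 0.17 and B cell markers, 3 tested of 6, had r = 0.00, which was 0.35 for B cells on values as deposited. Relative to its mean over all mice, the T and NK list ran from -0.25 to 0.34 in control, from -0.59 to 0.52 at 0.05% and from -0.23 to 0.06 at 1%. The Kupffer cell list ran from -0.34 to 0.52, from -0.33 to 0.25 and from -0.35 to 0.31 in that order. The part of these markers in the variation of the immunoproteasome genes was not tested. Between Psme1, the analysed subunit of PA28, and the 3 subunits r averaged 0.15, which was 0.30 on values as deposited and 0.33 after quantile normalization.

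The core and cap genes also varied together, over a smaller range. Genes of like brightness were not compared, so whether this is particular to them was not tested. Over their 465 pairs the mean r was 0.32 and 398 pairs were positive, against a mean r of 0.01 over all pairs of tested genes. The mean r was 0.45 among the alpha subunits, 0.42 among the beta subunits, 0.22 among the ATPases and 0.28 among the other cap subunits, and it was 0.32 between the 20S core and the 19S cap. On values as deposited the mean over core and cap pairs was 0.78 against 0.27 over all genes, and after quantile normalization 0.23 against 0.01. Psmd12 (0.85), Psma3 (0.83) and Psmd1 (0.82) followed the mean of the other core and cap genes most closely. Psmd2, a scaffold of the cap, had the lowest r, -0.32, which was 0.69 on values as deposited and -0.16 after quantile normalization. Outside the family, the 5 genes most like the core and cap mean were Sparc (0.83), Faf1 (0.83), Tubb4b (0.80), Larp7 (0.80) and Anxa7 (0.79). This order depended on the scaling, since only Faf1 of them was among the top 5 on values as deposited and only Larp7 after quantile normalization.

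Against the immunoproteasome the core and cap genes had no direction that held under every scaling. The mean r between the 2 groups was -0.24 after the median shift, 0.10 on values as deposited and -0.05 after quantile normalization. Psmd11, a cap subunit, had the lowest r with the immunoproteasome mean, -0.76, and it was -0.45 as deposited and -0.66 after quantile normalization. It was 11.87 in 1% mouse 1 and 10.92 in 1% mouse 6, the mouse where Psmb8, Psmb9 and Psmb10 were highest within that diet. Psmg3, the assembly chaperone, had r = 0.61 with the same mean, 0.62 as deposited and 0.66 after quantile normalization. The chaperones as a group had a mean r of 0.02 with the core and cap genes, which was 0.59 on values as deposited, against 0.27 over all genes, and -0.02 after quantile normalization.

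The wider ubiquitin-proteasome pathway did not differ between diets by the test either. Of 27 listed pathway genes outside the symbol rule, 20 were tested and 0 were called in any comparison (limma), beside the background shares above; 1 was under an unadjusted 0.05, Txnl1, a cap-associated thioredoxin, at -0.18 ± 0.08 in 1% against control (adjusted p = 0.551). Akirin2, which brings the proteasome into the nucleus, was 9.19 ± 0.18 at 1%, 9.01 ± 0.15 at 0.05% and 8.99 ± 0.18 in control, a difference of 0.20 ± 0.10 at 1% against control (adjusted p = 0.620). Nfe2l1, the factor that induces proteasome genes when the particle is blocked, was 8.30 ± 0.19 in control, 8.29 ± 0.18 at 0.05% and 8.37 ± 0.19 at 1%. Nfe2l2, the oxidative stress factor, was 9.93 ± 0.53, 10.09 ± 0.25 and 9.81 ± 0.23. Pomp, the maturation factor of the core, was 10.76 ± 0.09, 10.68 ± 0.09 and 10.70 ± 0.18.

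Of 16 listed genes for ubiquitin and its first enzymes, 11 were tested, 4 were higher and 7 lower at 1% against control, and 0 were called. The ubiquitin-conjugating enzyme Ube2d1 had the smallest p there, at 0.19 ± 0.10 (limma, adjusted p = 0.629). Of 26 listed genes of interferon-induced antigen processing, 21 were tested, 12 were higher and 9 lower at 1% against control, and 0 were called in any comparison. Nlrc5, the MHC class I transactivator, was 7.18 ± 0.37 at 0.05% and 7.52 ± 0.20 at 1%, a difference of 0.34 ± 0.15 (adjusted p = 0.545).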

How the data were processed

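Each of the 18 arrays held biotin-labelled RNA of 1 liver, amplified with a 3-prime kit per the labels' protocols. The deposited values are linear intensity values, 1 per probe set and array, from 0.0118 to 18108. How the authors scaled the arrays, and with which signal software, is not stated in these sources. Of 45101 probe sets, 34945 had a single gene symbol in the platform annotation. Intensities were turned to log2 after adding 16, which understates differences of dim genes. Each gene was read from its probe set with the highest mean, and genes above the 40th percentile of all probe sets (log2 4.69) were tested. Arrays were shifted to a common median of the tested genes, since the deposited arrays were not on a common scale. limma 3.58.1 under R 4.3.3 was fitted to 3 diet means over all 18 arrays (15 residual and 3.81 prior degrees of freedom), with Benjamini-Hochberg adjustment. The number of arrays limits the precision; the median SE of a difference was 0.13. The pipeline was tested on simulated data.

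The members and gene lists were chosen with earlier results of these data known. Genes were named by a rule: the cutting subunits and activators, the 3 smallest p and 2 largest differences each way per comparison, up to 3 genes per wider list, and the 5 genes most like each mean. Psmb2, Psmg1, Psmc1, Psmc4, Psmd1, Psmd2, Psmd11, Psmd12, Psma3, Tap1, Tap2, Irf1 and B2m were named after their values were seen, and Nfe2l1, Nfe2l2 and Pomp for their role. Alternatives were values as deposited, quantile normalization, other filters and pseudocounts, averaging each gene's probe sets, trended and robust eBayes, replicate number as a block, and leaving out each mouse.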

Additional observations from a re-analysis of the deposited data

Results flagged for a closer look

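Among 66 groups of 6 mice examined, over the named genes and the means of the gene groups, 2 held a mouse far from the other 5, where chance gives about 1 in 20, or 3.3. Psma6 in control mouse 3 stood at 11.47 on its brightest probe set, while the next control was at 10.92 and the lowest at 10.78. The mean of the 31 core and cap genes in 1% mouse 1 stood at 0.13 above its mean over all mice, while the next mouse on 1% was at -0.01 and the lowest at -0.05. In that mouse 28 of the 31 genes lay above their own mean over all mice. Both hold after the median shift only. As deposited the median of this array was 6.72, and the shift raised each of its genes by 0.26. That rise is larger than 0.13, so on values as deposited the core and cap mean of this mouse lay below its mean over all mice.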

How the results depend on the processing

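With every mouse kept, all 99 alternative values stayed on the same side of the threshold as the value reported, and the medians moved by less than the spread between mice. No proteasome gene was called by limma under any of them (0 of 47 each time), with lowest adjusted p of 0.307 in 1% against control, 0.783 in 0.05% against control and 0.519 in 1% against 0.05%. The median difference of the 44 constitutive genes ran from -0.08 to -0.01, from -0.02 to 0.02 and from -0.05 to 0.01 in those comparisons, so its sign is not settled in the last 2 of these. Leaving out each mouse in turn, the within-array differences changed sign in 4 cases. Those were Psmb9 minus Psmb6 in 1% against 0.05%, which ran from -0.17 to 0.060, and Psmb10 minus Psmb7 in 1% against control, which ran from -0.030 to 0.18 and was lowest without 1% mouse 6. Medians near 0 also crossed it without 1 mouse: that of the constitutive genes ran from -0.02 to 0.01 both in 0.05% against control and in 1% against 0.05%, and that of Psmb8, Psmb9 and Psmb10 in 1% against 0.05% from -0.13 without 1% mouse 6 to 0.07 without 0.05% mouse 2. The latter median in 1% against control ran from -0.35 without 1% mouse 6 to -0.11 without 1% mouse 2, and 0 genes were called without any 1 mouse (lowest adjusted p 0.158). With replicate number as a block 0 genes were called in any comparison. The numbers are no pairing: deviations of same-numbered mice correlated above 0.1 in 3 of 18 pairs, from -0.47 to 0.33. Dim genes such as Psma8 and Psmb11 lie near the floor of the array, where differences are understated.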
